A study of Homo sapiens with 12 samples.

Results

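YAP1 and WWTR1 encode the transcriptional co-activators YAP and TAZ, TEAD1, TEAD2, TEAD3 and TEAD4 encode the DNA-binding proteins through which they act, and ANKRD1, AMOTL1, AMOTL2 and LATS2 are genes of their output and feedback. These 10 genes were taken by symbol from a count table of 60668 genes and are described across 12 RNA-seq libraries. The libraries came from PANC-1, a pancreatic adenocarcinoma line, with an shRNA against FOSL1 or a scrambled control shRNA, and from H1299, a lung adenocarcinoma line, with an shRNA against HDAC2 or a scrambled control shRNA, with 3 libraries in each of the 4 groups. FOSL1 encodes Fra-1, a subunit of the AP-1 transcription factor, and HDAC2 a class I histone deacetylase. The study's methods describe lentiviral delivery and puromycin selection for the FOSL1 shRNA, and the HDAC2 shRNA is known here from the labels alone. Each knockdown was 1 shRNA in 1 line, so an effect of the target, of that shRNA sequence and of the line cannot be told apart. The labels call the libraries biological replicates without saying whether they were transduced separately. The p-values below therefore set group differences against the spread between these libraries and no wider one.

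YAP and TAZ do not bind DNA themselves. The Hippo kinases STK3 and STK4 activate LATS1 and LATS2, which phosphorylate YAP and TAZ and hold them in the cytoplasm, and the angiomotins AMOT, AMOTL1 and AMOTL2 bind YAP and TAZ at cell junctions and on actin. When the kinases are silent, YAP and TAZ enter the nucleus and bind TEADs, which often sit beside AP-1 at enhancers, and the complex drives ANKRD1, CCN1, CCN2, AMOTL2 and LATS2, of which the last pair feed back on the pathway. Messenger RNA levels do not show how much YAP or TAZ is nuclear, and protein was not measured in these libraries.

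The recognition element of TEADs was looked for near the start of the members, to show where in this set it lies. RefSeq promoter windows, from 250 bases before to 50 bases after an annotated start on GRCh38.p14, were matched for 8 of the 10 members and gave 11 windows. The letters GGAATG, read on both strands, were in 4 of the 11 windows, those of YAP1, ANKRD1, AMOTL2 and LATS2, and in 14% of all 35116 windows. Each match is printed 5′ to 3′ in the direction of its gene within 30 bases, with the element in capitals, which read CATTCC in AMOTL2 because the element lies on the other strand. The first bases of these elements were at positions -162 in YAP1, -220 and -128 in ANKRD1, -69 in AMOTL2 and 10 in LATS2 relative to the start of the window's transcript. AMOTL2 had another window, at chr3:134375368-134375667, which held no match.
YAP1 (chr11:102110273-102110302, plus strand): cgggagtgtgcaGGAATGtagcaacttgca
ANKRD1, first (chr10:90921290-90921319, minus strand): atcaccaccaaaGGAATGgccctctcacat
ANKRD1, second (chr10:90921198-90921227, minus strand): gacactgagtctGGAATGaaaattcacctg
AMOTL2 (chr3:134374499-134374528, minus strand): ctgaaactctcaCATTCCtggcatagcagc
LATS2 (chr13:21061560-21061589, minus strand): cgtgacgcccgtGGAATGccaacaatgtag

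The window of CCN2, a secreted matrix protein long used as a readout of YAP and TAZ and the gene of the pathway with the largest increase described below, held 3 matches. The second of them, with its first base at position -104, is followed closely by the third, which is left in lower case here.
CCN2 (chr6:131951459-131951488, minus strand): ggaaggtggggaGGAATGcgaggaatgtcc
The AP-1 element TGAGTCA, read on both strands, was in 0 of the 11 windows of members and in 4.95% of all windows. CCN2 was shown because of its increase, CCN1 had no window, and the windows of other targets are not shown. Whether the matches bear on the increase of CCN2 was not tested. A match is a description of the letters and not of binding.

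On GRCh38 with GENCODE 44, chromosome 11 holds YAP1 (ENSG00000137693.14, chr11:102110447-102233424, plus strand), TEAD1 (ENSG00000187079.17, chr11:12674421-12944737, plus strand) and AMOTL1 (ENSG00000166025.18, chr11:94706431-94876748, plus strand). WWTR1 (ENSG00000018408.14, chr3:149517235-149736714) and AMOTL2 (ENSG00000114019.14, chr3:134355347-134375479) lie on the minus strand of chromosome 3. The others are TEAD2 (ENSG00000074219.13, chr19:49340595-49362457, minus strand), TEAD3 (ENSG00000007866.21, chr6:35473597-35497079, minus strand), TEAD4 (ENSG00000197905.9, chr12:2959330-3040676, plus strand), ANKRD1 (ENSG00000148677.6, chr10:90912096-90921087, minus strand) and LATS2 (ENSG00000150457.9, chr13:20973036-21061586, minus strand). The strand setting of the read counting was not stated, so reads of overlapping genes cannot be told apart. Other genes' exons covered 10.1% of the exon bases of YAP1, 9.05% of WWTR1, 10.7% of TEAD2, 4.95% of AMOTL1 and 2.89% of AMOTL2, and 0% of the other 5 members.

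The libraries held 16065723 to 19173421 counts. Levels are given as CPM, counts divided by the library total after TMM scaling over all 12 libraries, which puts libraries of different depth on an equal footing. FOSL1 was 170 ± 6.47 CPM in PANC-1 shFOSL1 cells against 226 ± 14 in scramble cells (SD, n = 3), 0.741 of the scramble level, so most of its transcript was still present. HDAC2 was 74.6 ± 5.44 CPM in H1299 shHDAC2 cells against 178 ± 7.86 in scramble cells (SD, n = 3), 0.417 of the scramble level. Scramble replicate 1 stood apart from scramble replicates 2 and 3 in both lines, and mitochondrially encoded genes took 12.6 to 13.3% of counts in PANC-1 shFOSL1 libraries and 6.99 to 7.29% in PANC-1 scramble libraries. PANC-1 scramble cells expressed the epithelial keratin KRT8 at a mean of 1410 CPM and the ductal markers KRT19 and SOX9. H1299 scramble cells expressed KRT8 at 280 CPM, but the lung lineage markers NKX2-1, NAPSA, SFTPB and SFTPC summed to 2.63 to 3.93 CPM, and EPCAM and CDH1 were each under 1 CPM.

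In the scramble cells of both lines all 10 members were detected, and the lines differed most in the angiomotins. Levels of different genes were compared as RPKM, which is CPM per kilobase of all annotated exons of the gene. In PANC-1 scramble cells the order of means was WWTR1 (29.8 ± 2.34 RPKM, SD, n = 3), YAP1 (25 ± 0.786), TEAD3 (14.7 ± 1.09), TEAD4 (13.3 ± 0.22), TEAD1 (11.5 ± 1.76), TEAD2 (10.3 ± 0.694), AMOTL2 (4.85 ± 0.202), LATS2 (4.15 ± 0.303), AMOTL1 (1.05 ± 0.0458) and ANKRD1 (0.661 ± 0.252). The ranges of TEAD1 and TEAD4 overlapped, as did those of TEAD1 and TEAD2, and no other neighbours in this order overlapped. In H1299 scramble cells the order was TEAD4 (27 ± 2.76 RPKM), YAP1 (24.5 ± 0.424), AMOTL2 (23.1 ± 1.01), WWTR1 (17.5 ± 1.07), TEAD3 (12.1 ± 1.02), TEAD2 (11.2 ± 0.387), TEAD1 (8.7 ± 0.544), LATS2 (5.82 ± 0.214), AMOTL1 (4.97 ± 0.2) and ANKRD1 (1.98 ± 0.143). There the ranges of YAP1 and AMOTL2 overlapped, and TEAD3 and TEAD2 came within rounding of each other. An order between genes rests on the exon length used.

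**Figure D1:**
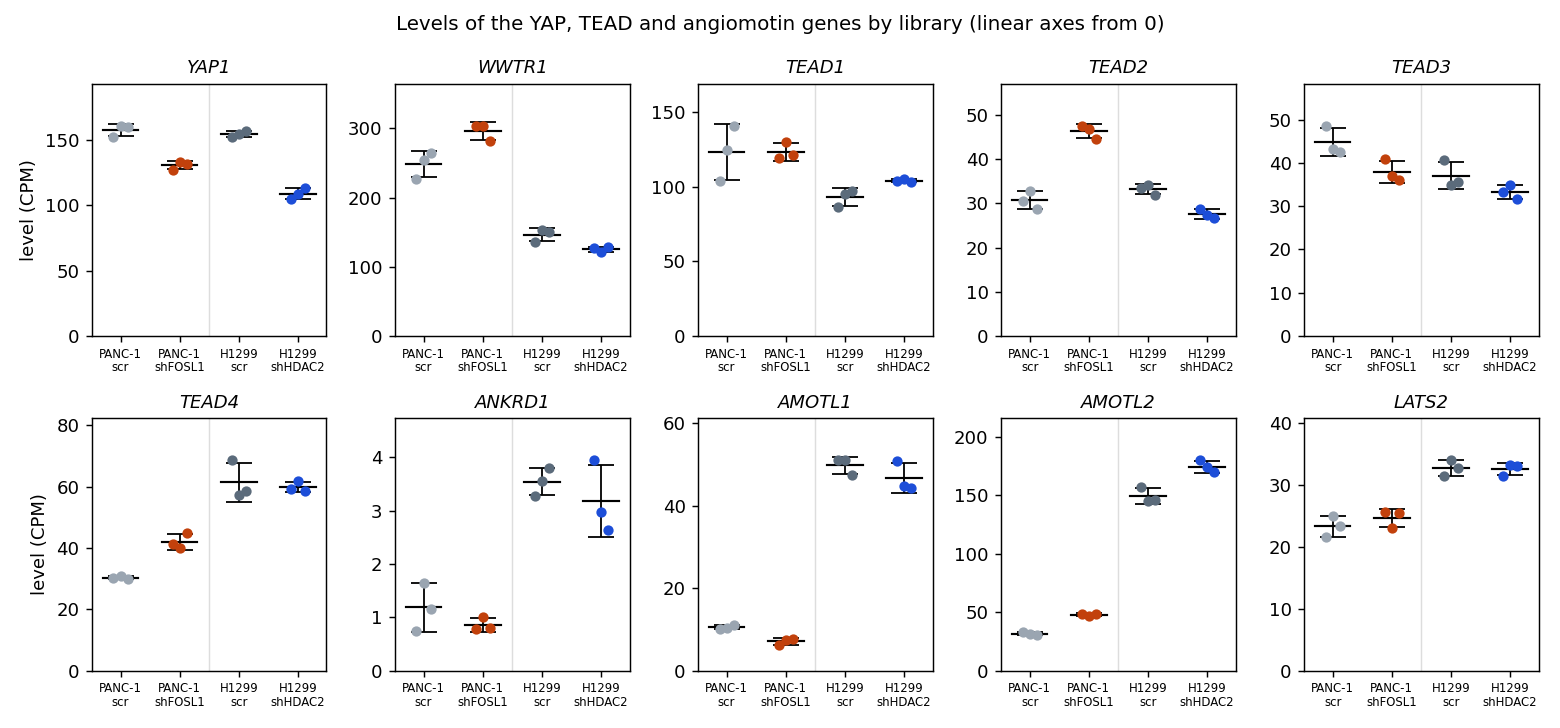
Level of each member in CPM on a linear axis from 0, with 1 point per library and the mean and SD of each group of 3 libraries (scr, scramble). AMOTL2 sits between 30.2 and 48.8 CPM in PANC-1 and between 145 and 180 CPM in H1299, and ANKRD1 is under 4 CPM in every library.

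Between the scramble cells of both lines, 8 of the 10 members differed by edgeR's quasi-likelihood test, where 76.9% of 17619 genes did, 37.4% higher and 39.5% lower in PANC-1, so differing between these lines was the common case. The groups did not overlap in 8 members, as in 77.9% of all genes. AMOTL2 was at 32.8, 31.3 and 30.2 CPM in PANC-1 scramble replicates 1 to 3 and at 157, 145 and 146 CPM in H1299. AMOTL1 was at 10.2, 10.4 and 11.1 CPM in PANC-1 and at 51, 51 and 47.5 CPM in H1299. Every PANC-1 library was below every H1299 library for both angiomotins, and their log2 fold changes, PANC-1 over H1299, were -2.26 and -2.24 (edgeR adjusted p = 1.1e-15 and 4.1e-14). ANKRD1 (-1.59), TEAD4 (-1.03) and LATS2 (-0.50) were also lower in PANC-1, with edgeR adjusted p from 2.6e-09 to 1.2e-04. WWTR1 (0.76, adjusted p = 2.8e-08), TEAD1 (0.40, adjusted p = 8.6e-04) and TEAD3 (0.27, adjusted p = 0.0144) were higher in PANC-1 by the same edgeR test. The call of TEAD3 ended without H1299 scramble replicate 2 (0.221, edgeR adjusted p = 0.0767) or replicate 3 (0.228, adjusted p = 0.0778). YAP1 gave 0.02 with a 95% interval of -0.13 to 0.17 (edgeR adjusted p = 0.823) and TEAD2 gave -0.12 (adjusted p = 0.247). Each line is 1 line, so these differences are between PANC-1 and H1299 cells and not between cancers of the pancreas and the lung.

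With the FOSL1 shRNA in PANC-1 cells, the co-activator pair changed in opposite directions, the TEADs divided, and the angiomotins AMOTL2 and AMOTL1 moved apart. WWTR1, TEAD2, TEAD4 and AMOTL2 rose, YAP1, TEAD3 and AMOTL1 fell, and TEAD1, ANKRD1 and LATS2 did not pass the test. The 7 called members compare with 50.9% of all 16345 genes tested, of which 23.8% were called higher and 27.1% lower, so a call by itself was common in this comparison. With an absolute log2 fold change over 0.5 as well, TEAD2 and AMOTL2 were higher and AMOTL1 lower, 3 of 10 members against 26.5% of all genes, of which 10.6% were higher and 15.8% lower. The groups did not overlap in 7 of the 10 members, which were the called ones, and in 57.4% of all genes. The median log2 fold change of the members was 0.01, beside -0.02 over all genes. In bulk libraries such as these, fewer cells that express a gene and less RNA per cell cannot be told apart.

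YAP1 was at 127, 133 and 132 CPM in shFOSL1 replicates 1 to 3 and at 152, 161 and 160 CPM in scramble replicates 1 to 3. All knockdown libraries were below all scramble libraries, and YAP1 fell by 0.29 on the log2 scale (SE 0.061, edgeR adjusted p = 3.0e-04). WWTR1 was at 304, 303 and 282 CPM with the FOSL1 shRNA and at 227, 255 and 264 CPM in scramble cells. Its groups did not overlap either, with scramble replicate 1 the lowest of the 6, and it rose by 0.23 (SE 0.0624, edgeR adjusted p = 0.00375). Over 14 alternative settings the log2 fold change stayed between -0.31 and -0.26 for YAP1 and between 0.19 and 0.29 for WWTR1.

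Since the pair shares its role, the make-up of its summed RPKM was also computed. YAP1 made up 36.9 ± 1.37% of YAP1 plus WWTR1 in shFOSL1 libraries and 45.6 ± 1.25% in scramble libraries (SD, n = 3), a difference of -8.75 percentage points without overlap. The two-sided exact permutation test gave p = 0.1, the smallest that 3 libraries against 3 allow. The sum itself was 56.4, 57.4 and 54.8 RPKM with the FOSL1 shRNA and 51.2, 56 and 57 RPKM in scramble cells, and these ranges overlapped.

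TEAD2 was at 47.6, 46.8 and 44.6 CPM with the FOSL1 shRNA and at 30.6, 32.9 and 28.8 CPM in scramble cells. TEAD4 was at 41.2, 40 and 44.8 CPM with the FOSL1 shRNA and at 30.1, 30.8 and 29.9 CPM in scramble cells. Both were higher in every knockdown library, and TEAD2 rose by 0.57 (SE 0.0831, edgeR adjusted p = 4.1e-06) and TEAD4 by 0.45 (SE 0.0835, adjusted p = 8.5e-05). TEAD3 was at 40.8, 36.9 and 36 CPM with the FOSL1 shRNA and at 48.6, 43.3 and 42.5 CPM in scramble cells. It fell by 0.27 on the log2 scale (SE 0.0841, edgeR adjusted p = 0.0105), but the call ended without shFOSL1 replicate 2 (-0.24, adjusted p = 0.0584) or replicate 3 (-0.224, adjusted p = 0.0753). TEAD1 was at 119, 130 and 121 CPM with the FOSL1 shRNA and at 104, 125 and 141 CPM in scramble cells. Its scramble libraries spanned the whole range of the knockdown libraries, and its log2 fold change was -0.03 with a 95% interval of -0.20 to 0.14 (edgeR adjusted p = 0.799).

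The summed RPKM of the 4 TEADs was 58.5, 57.5 and 57.8 with the FOSL1 shRNA and 49.2, 50.5 and 49.9 in scramble cells, higher in every knockdown library. TEAD4 made up 31.9 ± 1.95% of the sum in knockdown libraries against 26.7 ± 0.342% in scramble libraries, and TEAD2 26.8 ± 0.814% against 20.7 ± 1.28% (SD, n = 3). TEAD3 made up 21.4 ± 1.27% against 29.5 ± 2.54%, from the largest share in scramble cells to the third of the 4 in knockdown cells. With the longest transcript as the length, TEAD4 (30.3%) and not TEAD3 (25.7%) already had the largest share in scramble cells. By that length TEAD3 (18.3%) lay below TEAD1 (18.9%) in knockdown cells. By all exons TEAD3 (21%) and TEAD1 (21.1%) were nearly equal in shFOSL1 replicate 2, so the third place of TEAD3 is not firm. The shares of TEAD2, TEAD3 and TEAD4 did not overlap between groups, each with a two-sided exact permutation p of 0.1, the smallest the design allows. The share of TEAD1 overlapped, at 19.9 ± 1.09% against 23.1 ± 3.36% (exact permutation p = 0.2).

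**Figure D2:**
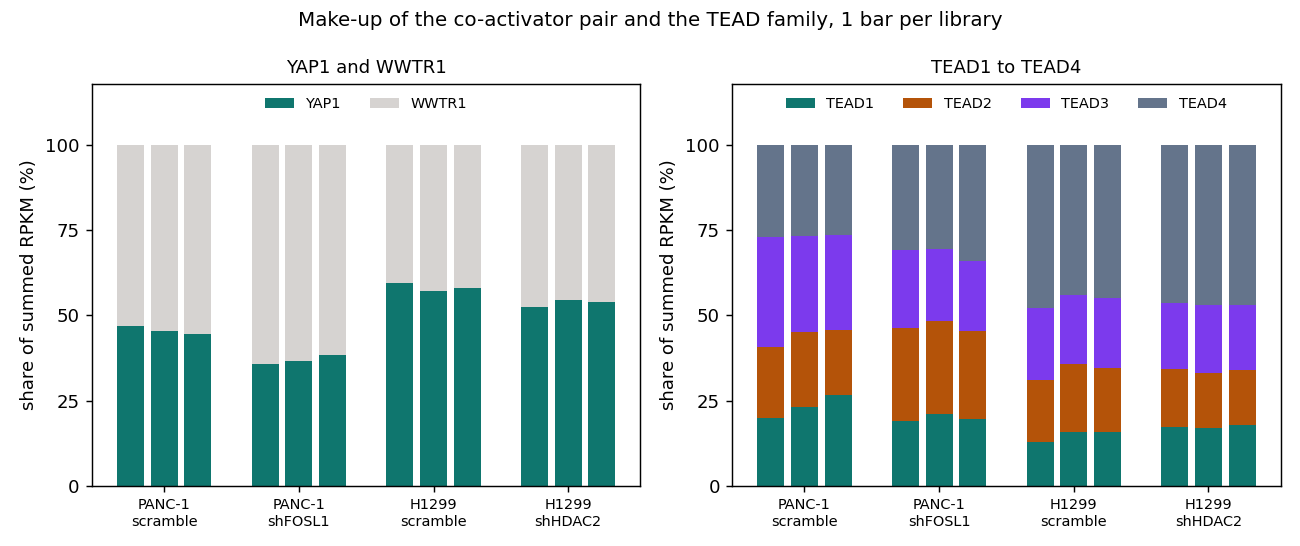
Share of summed RPKM in percent, with 1 stacked bar per library, for YAP1 against WWTR1 and for the 4 TEADs, in the 4 groups. In PANC-1 the YAP1 share averages 45.6% in scramble and 36.9% in shFOSL1 libraries, and the TEAD3 share averages 29.5% and 21.4%.

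AMOTL2 was at 48.5, 46.7 and 48.8 CPM with the FOSL1 shRNA and at 32.8, 31.3 and 30.2 CPM in scramble cells. AMOTL1 was at 6.23, 7.4 and 7.67 CPM with the FOSL1 shRNA and at 10.2, 10.4 and 11.1 CPM in scramble cells. The closely related angiomotins thus separated in every library, AMOTL2 rising by 0.59 (SE 0.0801, edgeR adjusted p = 1.4e-06) while AMOTL1 fell by 0.60 on the log2 scale (SE 0.133, adjusted p = 6.2e-04). The founding member of the family, AMOT, was at 3.36, 2.88 and 4.12 CPM against 6.87, 8.14 and 7.4 CPM in scramble cells. It also fell without overlap, by 1.13 on the log2 scale (SE 0.17, edgeR adjusted p = 5.5e-06).

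ANKRD1, an ankyrin repeat protein of muscle and a common YAP target, was at 13, 17 and 14 counts with the FOSL1 shRNA and at 14, 31 and 22 counts in scramble cells. Its groups overlapped, and its log2 fold change of -0.49 had an interval of -1.24 to 0.26 (edgeR adjusted p = 0.275). LATS2, the kinase that closes the feedback, was at 25.6, 23 and 25.4 CPM against 21.6, 25 and 23.3 CPM. Its groups overlapped and its log2 fold change was 0.06 with an interval of -0.14 to 0.26 (edgeR adjusted p = 0.654).

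The mitochondrial share, higher in every PANC-1 shFOSL1 library, moved with all of these results. When mitochondrially encoded genes and the 20 most abundant ones were left out of the fit, the same 4 members were higher and the same 3 lower. That fit cannot separate the share from the knockdown, since the share did not overlap between the groups, and its part in the results was not tested. Without scramble replicate 1 the counts were again 4 and 3. A list of 6 fibroblast markers summed to 234 to 292 CPM in PANC-1 scramble libraries and to 86.2 to 93.7 CPM in shFOSL1 libraries. Most of it was COL1A1, at a mean of 249 and 78.2 CPM, and PDGFRB was at 3.87 and 0.578 CPM. COL3A1, the second most abundant of the list, went the other way, at 8.76 CPM in scramble and 11.5 CPM in shFOSL1 cells, and DCN, LUM and COL1A2 were each under 1 CPM. The epithelial markers KRT8, KRT18, EPCAM and CDH1 summed to 1710 to 2220 CPM in scramble and 1170 to 1210 CPM in shFOSL1 libraries, and the part of either list in the results was not tested. Markers of leukocytes and endothelial cells were each under 1 CPM in PANC-1 cells.

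With the HDAC2 shRNA in H1299 cells fewer members changed. YAP1, WWTR1 and TEAD2 fell, AMOTL2 rose, and TEAD1, TEAD3, TEAD4, ANKRD1, AMOTL1 and LATS2 did not pass the test. The 4 called members compare with 22.4% of the 16465 genes tested, of which 10.3% were called higher and 12.1% lower. YAP1 was the only member whose absolute log2 fold change was also over 0.5, just past that bound, where 7.06% of all genes were, 1.45% higher and 5.61% lower. The epithelial markers summed to 342 to 361 CPM in shHDAC2 and 543 to 606 CPM in scramble libraries, and their part in these results was not tested. The groups did not overlap in 6 members, as in 37.1% of all genes, and the median log2 fold change of the members was -0.13 beside 0 over all genes.

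YAP1 was at 105, 109 and 113 CPM in shHDAC2 replicates 1 to 3 and at 152, 155 and 157 CPM in scramble replicates 1 to 3. The gap between the groups was wider than either group's spread, and YAP1 fell by 0.50 on the log2 scale (SE 0.06, edgeR adjusted p = 2.1e-07), with a range of -0.52 to -0.47 over 14 alternative settings. WWTR1 was at 127, 121 and 128 CPM with the HDAC2 shRNA and at 136, 153 and 150 CPM in scramble cells. It fell without overlap by 0.23 on the log2 scale (SE 0.0626, edgeR adjusted p = 0.0084), and the call ended without shHDAC2 replicate 2 (-0.199, adjusted p = 0.0761). The summed RPKM of the pair was 31.9, 31.8 and 33.3 with the HDAC2 shRNA and 40.3, 42.9 and 42.8 in scramble cells. YAP1 made up 53.6 ± 1.1% of it against 58.3 ± 1.15% (SD, n = 3), a difference of -4.72 percentage points (two-sided exact permutation p = 0.1, the smallest possible). With the longest transcript as the length, the share in scramble cells was 49.6%, so whether YAP1 exceeded WWTR1 in H1299 depended on the length used.

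TEAD2 was at 28.8, 27.4 and 26.7 CPM with the HDAC2 shRNA and at 33.6, 34.2 and 32 CPM in scramble cells. It fell by 0.27 on the log2 scale (SE 0.0807, edgeR adjusted p = 0.0142), and the call ended without shHDAC2 replicate 2 (-0.264, adjusted p = 0.0608), shHDAC2 replicate 3 (-0.242, adjusted p = 0.0927) or scramble replicate 2 (-0.244, adjusted p = 0.0505). TEAD1 was at 104, 105 and 103 CPM against 86.5, 95.4 and 97.5 CPM, above every scramble library. Its log2 fold change of 0.15, with an interval of 0.02 to 0.29, did not pass the correction over all genes (edgeR adjusted p = 0.0829). TEAD3, at 31.6 to 34.9 CPM against 34.9 to 40.6 CPM, gave -0.16 (-0.32 to 0.01, edgeR adjusted p = 0.164). TEAD4, the most abundant TEAD of H1299, was at 59.4, 61.8 and 58.5 CPM against 68.6, 57.2 and 58.5 CPM in scramble cells. Only scramble replicate 1 stood above the rest, and the log2 fold change of TEAD4 was -0.04 with an interval of -0.19 to 0.11 (edgeR adjusted p = 0.744).

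The summed RPKM of the 4 TEADs was 56.3, 57.6 and 54.7 with the HDAC2 shRNA and 62.8, 57 and 57.2 in scramble cells, and these ranges overlapped. TEAD2 made up 16.5 ± 0.581% of the sum against 19 ± 1.1% in scramble cells, TEAD3 19.4 ± 0.455% against 20.5 ± 0.561%, and TEAD1 17.3 ± 0.344% against 14.8 ± 1.69% (SD, n = 3). These shares did not overlap between groups, each with a two-sided exact permutation p of 0.1, the smallest possible. The difference for TEAD2 was -2.45 percentage points here and 6.13 in PANC-1, a contrast that was not tested on the shares. TEAD4 made up 46.8 ± 0.436% against 45.7 ± 2.05%, with overlap (exact permutation p = 0.4).

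AMOTL2 was at 180, 174 and 170 CPM with the HDAC2 shRNA and at 157, 145 and 146 CPM in scramble cells. It rose by 0.22 without overlap (SE 0.059, edgeR adjusted p = 0.00578), and the call ended without shHDAC2 replicate 1 (0.204, adjusted p = 0.058). AMOTL1 was at 50.8, 44.9 and 44.4 CPM against 51, 51 and 47.5 CPM, with overlap, and gave -0.10 (-0.25 to 0.05, edgeR adjusted p = 0.379). AMOT, at 10, 11.5 and 10.6 CPM against 14.5, 13.7 and 17.2 CPM, fell by 0.50 on the log2 scale (edgeR adjusted p = 0.00146). ANKRD1 was at 66, 51 and 50 counts against 60, 63 and 75 counts (-0.16, interval -0.58 to 0.25, edgeR adjusted p = 0.612). LATS2 was at 31.4, 33.1 and 33 CPM against 31.4, 33.9 and 32.7 CPM (-0.01, interval -0.17 to 0.15, edgeR adjusted p = 0.94). The groups overlapped for both.

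**Figure D3:**
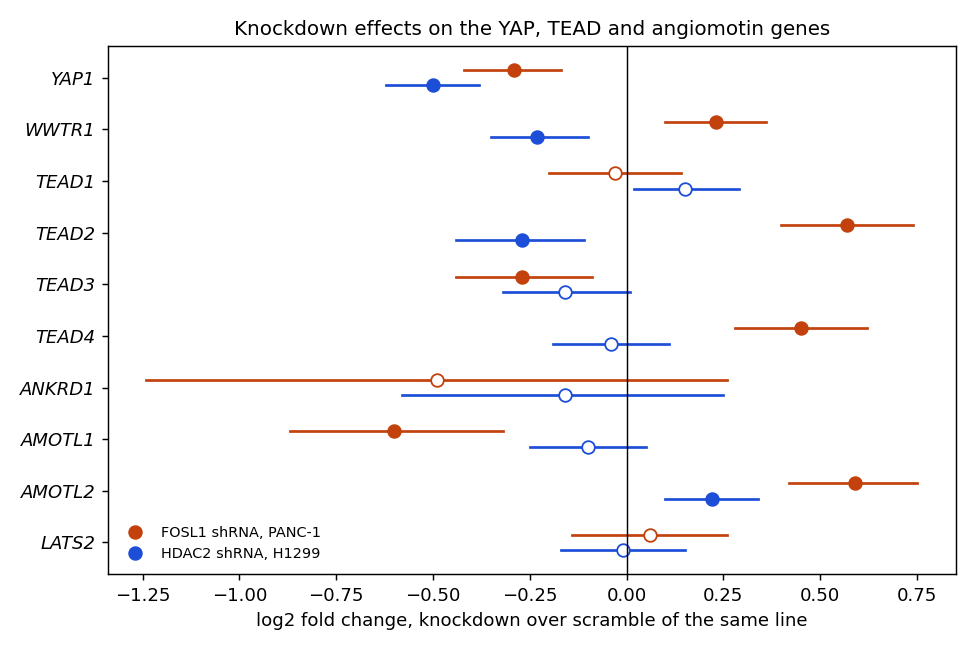
Log2 fold change of each member, knockdown over scramble of the same line, with its 95% interval, for the FOSL1 shRNA in PANC-1 and the HDAC2 shRNA in H1299; filled points have an edgeR adjusted p under 0.05. TEAD2 lies at 0.57 and -0.27, WWTR1 at 0.23 and -0.23, and YAP1 at -0.29 and -0.50.

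Whether both knockdowns moved a member differently was tested as a difference of log2 fold changes, the effect in PANC-1 minus the effect in H1299, in a fit over all 12 libraries. It passed for 6 of 10 members, where it passed for 33.8% of 18505 genes, 18.3% with a higher and 15.5% with a lower effect in PANC-1, and it compares different targets in different lines. TEAD2 had the largest difference among the members, at 0.86 (SE 0.112, edgeR adjusted p = 4.2e-07), having risen in PANC-1 and fallen in H1299. WWTR1 also rose in one and fell in the other, with a difference of 0.47 (SE 0.0899, edgeR adjusted p = 1.1e-04). TEAD4 (0.51, adjusted p = 4.8e-04), AMOTL1 (-0.48, adjusted p = 0.00778) and AMOTL2 (0.38, adjusted p = 0.0013) differed in size by the same edgeR test. YAP1 fell in both, and its difference of 0.23 (edgeR adjusted p = 0.0318) did not pass under RLE scaling (0.197, adjusted p = 0.066) or without any of 9 of the 12 libraries in turn (0.171 to 0.222). TEAD1 (-0.16, adjusted p = 0.275), TEAD3 (-0.09, adjusted p = 0.614), ANKRD1 (-0.31, adjusted p = 0.602) and LATS2 (0.09, adjusted p = 0.625) did not pass in edgeR. Without PANC-1 scramble replicate 1 TEAD1 did pass (-0.273, edgeR adjusted p = 0.0132).

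The other genes of the pathway were taken as 4 lists and set beside the members. The median log2 fold change over all genes was -0.02 in PANC-1 and 0 in H1299. Of 15 genes of the Hippo kinase module, 5 were higher and 6 lower with the FOSL1 shRNA in PANC-1, with a median log2 fold change of -0.06. Of all genes tested there, 23.8% were higher and 27.1% lower. The kinases TAOK3 (0.68), TAOK2 (0.60) and the scaffold WWC3 (0.45) had the largest increases. STK25 (0.31) and, with groups that overlapped, LATS1 (0.27) were also higher. The core kinases STK3 (-0.56) and STK4 (-0.39) and the scaffold WWC1 (-0.52), also known as KIBRA, had the largest decreases, with edgeR adjusted p from 1.1e-05 to 5.0e-04. MOB1A (-0.38) was lower without overlap, and SAV1 (-0.30) and TAOK1 (-0.23) were lower with groups that overlapped. STK3 was at 16.2, 17.4 and 18.7 CPM against 24.4, 25.2 and 26.6 CPM in scramble cells, without overlap. In H1299 3 of the 15 were higher, namely WWC2 (0.29), MOB1B (0.28) and STK4 (0.17), and 2 lower, MAP4K4 (-0.37) and WWC1 (-0.20), with a median of 0.13, where 10.3% of all genes were higher and 12.1% lower. MAP4K4, a kinase that acts on LATS beside STK3 and STK4, was at 257, 269 and 271 CPM against 324, 357 and 344 CPM (edgeR adjusted p = 1.7e-05). The calls of STK4, MOB1B and WWC1 each ended on leaving out any of 4 or 5 of the 6 libraries, with edgeR adjusted p up to 0.16, 0.0997 and 0.16. Leaving out single libraries, the list had 1 to 4 genes higher and 1 to 2 lower in H1299, and 4 to 5 higher and 4 to 8 lower in PANC-1. Other genes' exons covered 31.9% of the exon bases of SAV1, 21.8% of WWC2 and 21.1% of STK25.

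Of 12 partners and modifiers of YAP and TAZ, 10 were tested in PANC-1, of which 3 were higher and 5 lower, with a median of -0.19. Among all genes, 23.8% were higher and 27.1% lower in PANC-1, and 10.3% and 12.1% in H1299. AJUBA, a LIM protein that restrains LATS, was at 66.6, 61.9 and 70 CPM with the FOSL1 shRNA and at 35.9, 32.7 and 32.5 CPM in scramble cells. It had the largest increase of the list, 0.95 (SE 0.0793, edgeR adjusted p = 5.5e-10), while the related LIM proteins LIMD1 (-0.44) and WTIP (-0.32) fell. BTRC, part of the ligase that degrades phosphorylated YAP, rose by 0.79 from a mean of 20 to 35.2 CPM, and the kinase CSNK1D, which primes YAP for it, by 0.27. VGLL3 (-1.86), a TEAD partner at under 5 CPM, and CSNK1E (-0.29) were lower as well. Other genes' exons covered 24.9% of the exon bases of LIMD1, 23.8% of VGLL4, 18.5% of CSNK1E and 16.9% of CSNK1D. In H1299, of 11 tested, BTRC (0.33) and VGLL4 (0.22), which competes with YAP for TEADs, were higher, and AMOT (-0.50), WTIP (-0.38) and AJUBA (-0.22) lower, with a median of -0.04. The H1299 call of AJUBA ended without any of 5 of the 6 libraries in turn (edgeR adjusted p up to 0.266), that of VGLL4 without any of 4 (up to 0.163), that of BTRC without shHDAC2 replicate 2 (0.278, adjusted p = 0.0677) and that of WTIP without shHDAC2 replicate 3 (-0.291, adjusted p = 0.08), so that 0 to 2 were higher and 1 to 3 lower on leaving out single libraries.

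Of 9 polarity and adhesion genes that feed into the pathway, 3 were higher and 4 lower in PANC-1, with a median of -0.15. The shares over all genes were 23.8% higher and 27.1% lower in PANC-1, and 10.3% and 12.1% in H1299. KIRREL1, an adhesion protein that recruits SAV1 to junctions, was at 107, 114 and 114 CPM with the FOSL1 shRNA and at 51.3, 48 and 53.9 CPM in scramble cells, and rose by 1.11 (SE 0.07, edgeR adjusted p = 3.4e-12). SCRIB (0.20) and FAT1 (0.16) were higher by far less, and the call of FAT1 ended without shFOSL1 replicate 3 (0.153, edgeR adjusted p = 0.0841). The protocadherin DCHS1 (-0.68) and the polarity protein LLGL1 (-0.38) were lower, as were FAT4 (-0.32, with groups that overlapped) and, at under 1 CPM, CRB3 (-1.88). In H1299 FAT1 (0.26) and SCRIB (0.21) were higher and LLGL1 (-0.30), DCHS1 (-1.17) and CRB3 (-1.86) lower, with a median of -0.13. Levels of the last pair were low, at means of 2.09 against 4.68 CPM in scramble cells for DCHS1 and 0.208 against 0.773 CPM for CRB3. The H1299 call of SCRIB ended without any of 3 libraries in turn (edgeR adjusted p up to 0.128). Leaving out single libraries, 2 to 3 of the list were higher and 3 to 5 lower in PANC-1, and 1 to 2 and 2 to 3 in H1299. KIRREL1 did not pass there, and the difference between both effects on it was 1.27 (edgeR adjusted p = 3.6e-12).

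A list of 19 genes widely used as YAP and TAZ targets, from which the members themselves were left out, did not move one way. In PANC-1, 5 rose, 7 fell and 7 did not pass the test with the FOSL1 shRNA, with a median of -0.08. Of all genes, 23.8% were called higher and 27.1% lower there. CCN2 was at 363, 391 and 340 CPM with the FOSL1 shRNA and at 106, 106 and 117 CPM in scramble cells. CCN1, a matrix protein of the same family, was at 474, 493 and 475 CPM against 234, 217 and 242 CPM. Both stood far above their scramble range in every knockdown library, with log2 fold changes of 1.71 for CCN2 (SE 0.065, edgeR adjusted p = 1.4e-16) and 1.03 for CCN1 (SE 0.0575, adjusted p = 3.0e-13). The forkhead factor gene FOXF2 (0.93), the stress gene GADD45A (0.60) and FJX1 (0.32) also rose. Exons of other genes covered 11.9% of the exon bases of CCN2.

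The falls in the same list reached further. CCDC80, a matrix protein, was at 2.34, 2.35 and 2.71 CPM with the FOSL1 shRNA and at 9.34, 8.57 and 10.1 CPM in scramble cells (-1.94, edgeR adjusted p = 8.1e-10). IGFBP3, which binds insulin-like growth factors, was at 3.3, 4.52 and 2.2 CPM against 42.2, 29.2 and 39.5 CPM, and the coagulation factor gene F3, at a mean of 0.815 against 2.45 CPM, gave -1.60 (edgeR adjusted p = 1.7e-04). DOCK5 (-0.52), NUAK2 (-0.43), the receptor gene AXL (-0.36) and MYOF (-0.20) completed the decreases. The genes of the list thus ran in the same libraries from -3.49 for IGFBP3 to 1.71 for CCN2.

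In H1299, 18 of the 19 genes were tested, of which 4 were higher and 3 lower, with a median of 0.09. There 10.3% of all genes were higher and 12.1% lower. CCN1 was at 491, 528 and 487 CPM with the HDAC2 shRNA and at 498, 381 and 409 CPM in scramble cells. It was called at 0.22 (edgeR adjusted p = 0.0151) although scramble replicate 1 lay among the knockdown libraries. CCN2, at 87.7, 95 and 84.8 CPM against 95.9, 73.3 and 73.6 CPM, did not pass (0.14, edgeR adjusted p = 0.216), and scramble replicate 1 was the highest of the 6. IGFBP3 (0.90, at under 4 CPM), FJX1 (0.27, with groups that overlapped) and DOCK5 (0.26) were higher, and CCDC80 (-0.44), ARHGEF17 (-0.34) and AXL (-0.15) lower. The H1299 calls of DOCK5 and AXL each ended without any of 4 of the 6 libraries in turn (edgeR adjusted p up to 0.121 and 0.192), and that of ARHGEF17 without shHDAC2 replicate 3 (-0.247, adjusted p = 0.0764). Leaving out single libraries, 1 to 4 of the list were higher and 1 to 4 lower. The difference between both effects was 1.59 for CCN2 (edgeR adjusted p = 1.5e-12) and 0.83 for CCN1 (adjusted p = 7.5e-08).

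**Figure D4:**
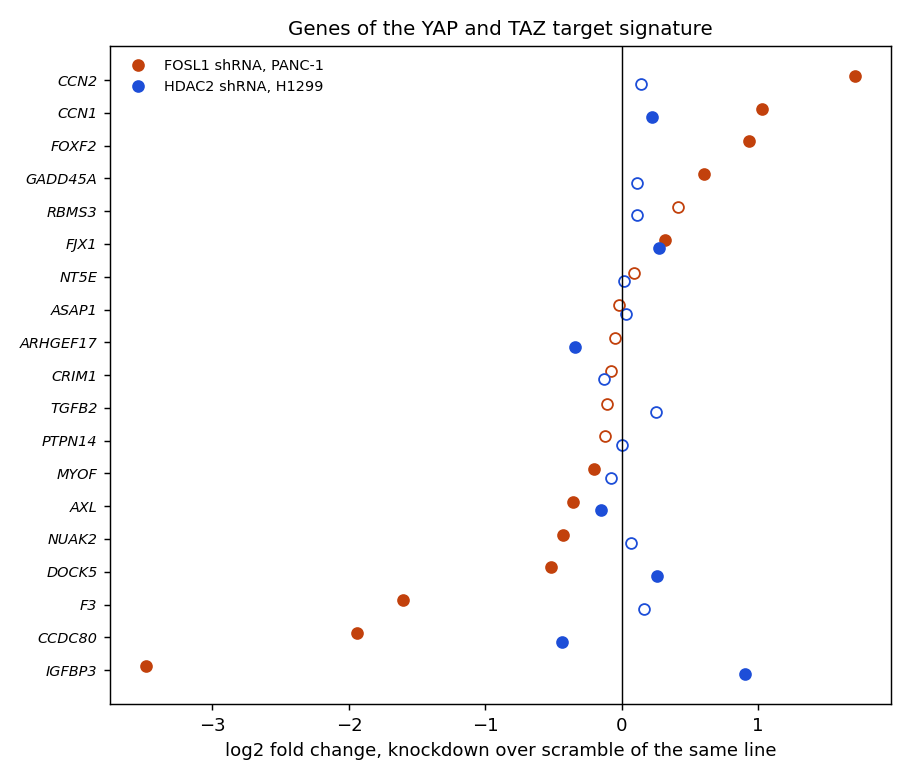
Log2 fold change of the 19 genes of the YAP and TAZ target signature, knockdown over scramble of the same line, 1 point per gene and line, with filled points for an edgeR adjusted p under 0.05 (FOXF2 was not tested in H1299). In PANC-1 the genes run from -3.49 for IGFBP3 to 1.71 for CCN2.

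AP-1 subunits were set beside the TEADs, since the factors share enhancers. Among all genes, 23.8% were higher and 27.1% lower in PANC-1, and 10.3% and 12.1% in H1299. With the FOSL1 shRNA in PANC-1, JUND (0.76) was higher and JUNB (-0.80), FOS (-0.59) and FOSL1 (-0.43) were lower among 7 genes. With the HDAC2 shRNA in H1299, FOS (0.50), FOSB (0.47), FOSL1 (0.40), FOSL2 (0.26) and JUN (0.25) were higher and JUNB (-0.18) lower. The groups of JUNB overlapped, and it was not called under the replicate block or without shHDAC2 replicate 1 or 2 or scramble replicate 1 or 2. Leaving out single libraries, 1 to 2 of the list were higher and 3 to 4 lower in PANC-1, with 2 higher without shFOSL1 replicate 3 or scramble replicate 3, and 4 to 5 were higher and 0 to 1 lower in H1299. FOSL1 thus went down in one comparison and up, from 446 ± 32 to 590 ± 26 CPM (SD, n = 3), in the other.

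The genes whose levels ran most like those of 3 members were sought over the 12 libraries, on log2 CPM centred within each line, among 10255 genes. YAP1 ran most like EID1 (Pearson r = 0.983), ADAMTSL4 (0.982) and TMEM245 (0.975), which had log2 fold changes of -0.28, -0.61 and -0.47 in PANC-1 and -0.50, -1.30 and -0.80 in H1299. AMOTL2 ran most like SCAF1 (0.995), RIOX1 (0.987) and RPS6KB2 (0.987), with 0.77, 0.44 and 0.81 in PANC-1 and 0.32, 0.17 and 0.33 in H1299. ANKRD1, with its low counts, had no gene above ASH2L (0.905), DYM (0.883) and MON2 (0.87). The 12 points share their groups and libraries, so these values describe the same knockdown contrasts and are not a test.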

How the data were processed

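The deposited values are whole-number counts per gene for 12 libraries in 4 groups taken from the labels. Per the labels and the study's methods, the authors prepared libraries with a NEBNext Ultra RNA kit, trimmed reads with cutadapt, used STAR 2.7.2b for alignment to GRCh38 and featureCounts 2.0.1 for counting. The release of the gene annotation and the strand setting are not given in the sources used here. GENCODE 44, which holds 60340 of the 60668 gene identifiers, gave positions and exon lengths.

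Each knockdown was compared with scramble cells of its own line in edgeR 4.0.16 (R 4.3.3; filterByExpr, TMM, quasi-likelihood test, Benjamini-Hochberg adjustment over all genes tested), with calls made below an adjusted p of 0.05. Intervals are 95% and rest on the spread between libraries. Fits with DESeq2 1.42.0 and limma-voom 3.58.1, other scalings and filters, a fold threshold of 0.5, a replicate block and leaving out each library were alternatives, and leaving out scramble replicate 1 of both lines was added after seeing the data. Same-numbered scramble libraries of both lines deviated together (r = 0.53, 0.19 and 0.25), and a block on the replicate number was tried by the rule that every r exceeds 0.1. PANC-1 replicate 2 with H1299 replicate 3 (r = 0.16) and PANC-1 replicate 3 with H1299 replicate 2 (r = 0.25) exceeded it too. The values thus set replicate 1 apart in both lines but do not pair replicates 2 and 3 by number. The blocked fit gave the same 3 higher and 5 lower members. The fitting code was tested on simulated data.

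The members and the lists were chosen with earlier results of these data known. From each list up to 3 genes per direction were named by size, provided that they were called, averaged 5 CPM or more and did not overlap between groups, and further called genes of a list were named after their values were seen.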

Additional observations from a re-analysis of the deposited data

Results flagged for a closer look

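The effects of the FOSL1 shRNA in PANC-1 and the HDAC2 shRNA in H1299 differed by the test of the difference itself in 6 members, as in 33.8% of all genes. The log2 effect in PANC-1 minus that in H1299 was 0.86 for TEAD2, 0.51 for TEAD4, 0.47 for WWTR1, 0.38 for AMOTL2, 0.23 for YAP1 and -0.48 for AMOTL1. The knockdowns differ in target, shRNA and line, which cannot be told apart.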

How the results depend on the processing

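Over the alternatives, 136 of 140 member values kept direction and side of the threshold in PANC-1, 132 of 140 in H1299, 186 of 200 for the difference and 137 of 140 between scramble cells. With a log2 fold change over 0.5 as well, 2 members were higher and 1 lower in PANC-1, and 0 higher and 1 lower in H1299. Leaving out 1 library gave 4 higher and 2 to 3 lower in PANC-1, 0 to 1 and 1 to 3 in H1299, 4 to 5 and 1 to 2 for the difference, and 2 to 3 and 5 to 5 between scramble cells. Without scramble replicate 1 of both lines the difference was lower in 2 members, TEAD1 being added (-0.222, edgeR adjusted p = 0.02). The YAP1 difference also missed the threshold with no filter (0.213, edgeR adjusted p = 0.121) and without mitochondrially encoded and very abundant genes (0.198, adjusted p = 0.0598). Signs turned only near 0: TEAD1 in PANC-1 (0.007 without shFOSL1 replicate 1, 0.098 without scramble replicate 3), HDAC2 in PANC-1 (-0.006 without scramble replicate 1), LATS2 in H1299 (0.014 without shHDAC2 replicate 1, 0.021 without scramble replicate 2, lowest -0.039), TEAD4 in H1299 (0.044 without scramble replicate 1, lowest -0.081) and YAP1 between scramble cells (-0.005 without H1299 scramble replicate 1, highest 0.053). The cause was not tested. Within each line, libraries that share a replicate number did not deviate together (r from -0.01 to 0.07 in PANC-1, -0.11 to 0.11 in H1299), and not every library ran best with its own number. With the replicate block the members were 4 higher and 3 lower in PANC-1, 1 and 3 in H1299, and 5 and 1 for the difference. Low counts limit ANKRD1.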
